A study of Mus musculus with 6 samples.

Results

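The genes described here encode the beta subunits of the sodium pump (Na,K-ATPase) and the small FXYD proteins that associate with it. 8 genes were listed by symbol, Atp1b1, Atp1b2, Atp1b3 and Fxyd1 to Fxyd5, and 7 of the 22180 genes measured with a probe set of their own were among them. All 7 had a single probe set. Fxyd3 had none of its own, since its probe set is annotated to a second gene as well, and it was left out of the comparison. The values come from kidneys of mice aged 4 weeks, with 1 Affymetrix whole-transcript array per sample and 6 arrays in 2 groups of 3. Neither group was treated, and both are labelled as mixed background. The labels name a conditional Pals1/Mpp5 knockout line in a C56Bl/6 background and a Six2-Cre transgene of mixed background, which 1 group carried (Cre-positive) and the other did not (Cre-negative). Mpp5 encodes Pals1, a scaffold protein of apical cell polarity. The series title speaks of its haplo-insufficiency, while how many conditional alleles each mouse had is not given in the sources used here. Six2-Cre acts in the progenitors of nephron epithelia, from podocytes to distal tubule, whereas collecting duct, vessels, stroma and leukocytes have other origins.

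The sodium pump moves sodium out of the cell and potassium into it at the cost of ATP, and in kidney tubules it sits in the basolateral membrane, where it drives the reabsorption of sodium and of the solutes that travel with it. Each pump joins a catalytic alpha subunit to a glycosylated beta subunit, which is needed for folding, delivery to the membrane and contacts between neighbouring cells. FXYD proteins span the membrane a single time and tune the affinity and speed of the pump, each in its own set of cells.

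The 2 FXYD genes whose transcripts passed the test, Fxyd1 and Fxyd5, lie near each other on mouse chromosome 7 in the RefSeq table, with Fxyd7 between them. The table of RefSeq promoter sequences used here (GRCm38.p6) was matched by symbol for 6 of the 8 listed genes. The 250 bases before the start of these 2 genes are printed as the members that rose together, and those of Atp1b1 as a member that did not pass, each 5′ to 3′ on the gene's strand. The intervals are chr7:31054854-31055103 for Fxyd1, chr7:31042332-31042581 for Fxyd5 and chr1:164458356-164458605 for Atp1b1, all on the minus strand. Capitals mark matches to GGGCGG, the GC box that Sp factors bind, on either strand.
Fxyd1: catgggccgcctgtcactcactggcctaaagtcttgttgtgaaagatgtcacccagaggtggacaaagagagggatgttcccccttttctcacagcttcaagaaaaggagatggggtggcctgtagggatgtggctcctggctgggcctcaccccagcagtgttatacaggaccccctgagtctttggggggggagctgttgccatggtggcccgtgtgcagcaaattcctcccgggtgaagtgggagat
Fxyd5: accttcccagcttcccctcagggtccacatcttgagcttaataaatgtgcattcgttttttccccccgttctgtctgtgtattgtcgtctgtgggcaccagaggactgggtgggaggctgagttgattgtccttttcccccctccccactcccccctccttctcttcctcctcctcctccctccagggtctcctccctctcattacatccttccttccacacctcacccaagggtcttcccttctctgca
Atp1b1: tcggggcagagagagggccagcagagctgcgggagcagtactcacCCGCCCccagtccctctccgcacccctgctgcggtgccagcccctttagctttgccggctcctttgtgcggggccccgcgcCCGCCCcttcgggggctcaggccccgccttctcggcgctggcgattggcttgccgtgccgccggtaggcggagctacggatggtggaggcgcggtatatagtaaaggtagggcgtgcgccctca
The other 3 motifs searched, each on both strands like GGGCGG, were the HNF1 half-site GTTAAT, the start-site element TATAAA and the AP-1 site written as TGANTCA with N for any base. None of the 4 was found in the printed stretches of Fxyd1 and Fxyd5, while that of Atp1b1 held GGGCGG at 2 places, beginning 205 and 124 bases before the start. Among all 32851 promoter stretches of this length, 32.7% held GGGCGG, 6.43% GTTAAT, 12.4% TATAAA and 6.75% TGANTCA. No match says only that these letters are not in this window. The stretch of Atp1b1 was richer in G and C (70.4%) than those of Fxyd1 (57.2%) and Fxyd5 (55.6%), against a median of 52.4% over all stretches. It held 24 CG pairs, where the other 2 held 3 each and the median was 6. Over the other measured members with a promoter entry, these features followed the calls only in part. The stretch of Fxyd4, which did not pass, had 58% G and C, 3 CG pairs and 1 match to GGGCGG. Of 2 start sites of Atp1b3, which did not pass either, 1 had 5 matches and the other 0. Their G and C shares were 73.6% and 76.8%, with 24 and 35 CG pairs, nearer to Atp1b1 than to Fxyd1 and Fxyd5.

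The whole table is summarised first. On the log2 scale of the deposited values, the 6 array medians ran from 5.55 to 5.64. Mpp5, the targeted gene, was at 8.66, 8.69 and 8.78 in Cre-negative and at 8.04, 8.06 and 8.20 in Cre-positive arrays, a difference of -0.61 ± 0.09 (SE, n = 3 per group, limma adjusted p = 0.00232). Which exons its probe set covers is not given in the sources used here, and the samples also hold cells that never carried active Cre. By limma with Benjamini-Hochberg adjustment at 0.05, 4844 of the 22180 genes (21.8%) passed, with 10.7% up and 11.1% down in Cre-positive kidneys. Median centring turned this near-even split into 1925 higher and 3112 lower. Judged by Xist and Y-linked transcripts, 2 of the 3 Cre-negative arrays were of female mice (replicates 1 and 2) and 0 of the 3 Cre-positive ones, so differences against the male Cre-negative array alone are given as well. Cre-negative replicate 2 also carried adrenal and Cre-positive replicate 2 skeletal muscle transcripts. Nothing in the labels states that each sample was a separate mouse. The p-values therefore reflect only how far these 6 samples varied, and part of that variation may be technical. The number of arrays limits the precision of every value.

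Of the 7 measured genes, 2 passed the test, both higher in Cre-positive kidneys and both FXYD genes, Fxyd5 and Fxyd1. None of the 3 beta subunit genes and none of the other 2 FXYD genes, Fxyd2 and Fxyd4, passed. The share of 28.6% lies near the 21.8% of all genes, and with 7 genes 1 call fewer would put it below. At an unadjusted p under 0.05 there were 4 members, the 4 FXYD genes, where 33.4% of all genes reached that p. In those 4 genes the groups did not overlap, 3 higher and 1 lower, where 38.5% of all genes had groups that did not (18.6% higher, 19.9% lower). The median difference was 0.08 over the 7 genes and -0.01 over all genes tested, and the median size of the difference regardless of sign was 0.235 and 0.164. In a bulk kidney sample, a change in the number of cells that make a transcript and a change in the amount per cell cannot be told apart.

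**Figure D1:**
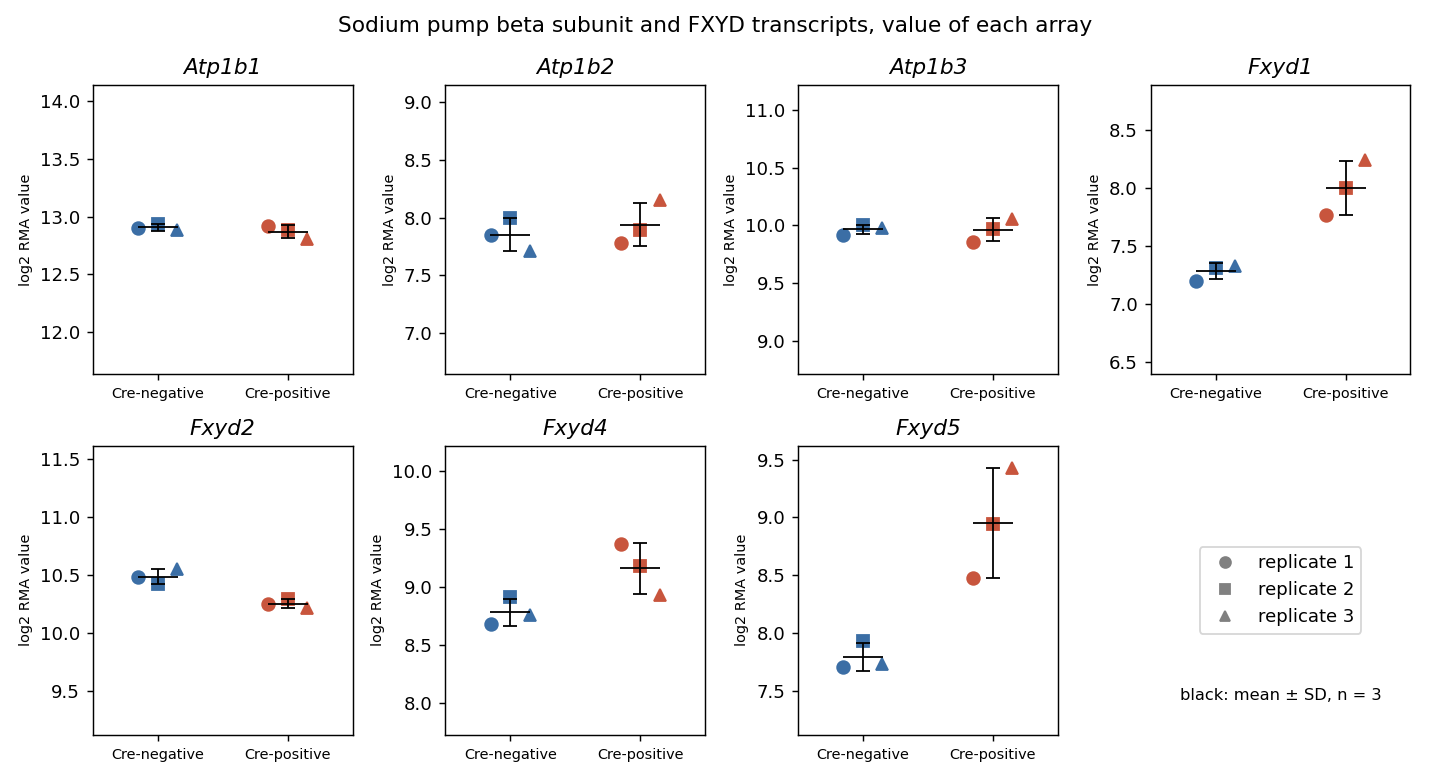
Log2 RMA value of each array for the 7 measured genes, with Cre-negative arrays in blue and Cre-positive arrays in red. Marker shapes give the replicate, black bars the mean ± SD (n = 3), and every panel spans the same 2.5 log2 units. Groups are apart in the 4 FXYD panels, widest in Fxyd5 (lowest Cre-positive value 8.48, highest Cre-negative value 7.93), and overlap in the 3 beta subunit panels.

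Atp1b1 encodes the beta subunit found with the pump along the whole nephron. Its values (probe set 17229178) were 12.90, 12.94 and 12.88 in Cre-negative arrays and 12.92, 12.88 and 12.81 in Cre-positive arrays. The groups overlapped, and all 6 arrays lay within a narrow band. The difference was -0.04 ± 0.08 (limma adjusted p = 0.795), with a 95% interval of -0.22 to 0.15, that is 0.856 to 1.11 of the Cre-negative level.

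Atp1b3 encodes a beta subunit present in many tissues. It read 9.92, 10.00 and 9.98 in Cre-negative and 9.86, 9.97 and 10.06 in Cre-positive arrays. The Cre-positive arrays spread to both sides of the Cre-negative ones. The difference was -0.01 ± 0.09 with a 95% interval of -0.21 to 0.20 (limma adjusted p = 0.977), and its sign changed to 0.08 under a second quantile normalization.

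Atp1b2, best known as a beta subunit and adhesion molecule of glia, was at 7.85, 8.0 and 7.71 in Cre-negative and at 7.78, 7.89 and 8.15 in Cre-positive arrays. The groups overlapped, and the highest value was that of Cre-positive replicate 3. The difference was 0.08 ± 0.12 (95% interval -0.20 to 0.37, limma adjusted p = 0.703), and 0.23 against the male Cre-negative array. A p that misses the threshold does not show that a level was the same. The intervals of these 3 genes leave room for differences of up to 0.22 downward and 0.37 upward on the log2 scale.

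Fxyd5 encodes dysadherin, an FXYD protein with a long extracellular part that is linked to weaker adhesion between epithelial cells. Its transcript (probe set 17489399) rose most among the 7 genes. The Cre-negative arrays read 7.71, 7.93 and 7.73 and the Cre-positive arrays 8.48, 8.94 and 9.43. Every Cre-positive value lay above every Cre-negative value, by 0.55 at the closest pair, and the Cre-positive arrays were further apart (SD 0.47) than the Cre-negative ones (SD 0.12). The difference was 1.16 ± 0.22 (limma adjusted p = 0.00723), or 2.24-fold with a 95% interval of 1.58 to 3.16. Against the male Cre-negative array it was 1.22. As all Cre-positive arrays were male, a fit with sex as a second factor gives this same estimate, which rests on 1 control array, with a larger SE (± 0.32, limma adjusted p = 0.0641), and the call was lost. Without both arrays that carried transcripts of other tissues it was 1.24 ± 0.30 (limma adjusted p = 0.0651).

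Fxyd1 encodes phospholemman, the FXYD protein of heart, skeletal and smooth muscle, which restrains the pump until it is phosphorylated. It was at 7.20, 7.31 and 7.33 in Cre-negative and at 7.77, 8.0 and 8.24 in Cre-positive arrays (probe set 17489420). The groups were apart by 0.44, and the order of the Cre-positive arrays was that of Fxyd5, lowest in replicate 1 and highest in replicate 3. The rise was 0.72 ± 0.13 (limma adjusted p = 0.00565), or 1.65-fold with a 95% interval of 1.35 to 2.02, and 0.675 against the male Cre-negative array. The call was lost with sex as a second factor (0.675 ± 0.19, limma adjusted p = 0.0779) and without both arrays with other tissues (0.74 ± 0.18, limma adjusted p = 0.0682). For each of the 4 FXYD genes an exact permutation test, two-sided, returned p = 0.10, the smallest p possible with 3 against 3 arrays.

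**Figure D2:**
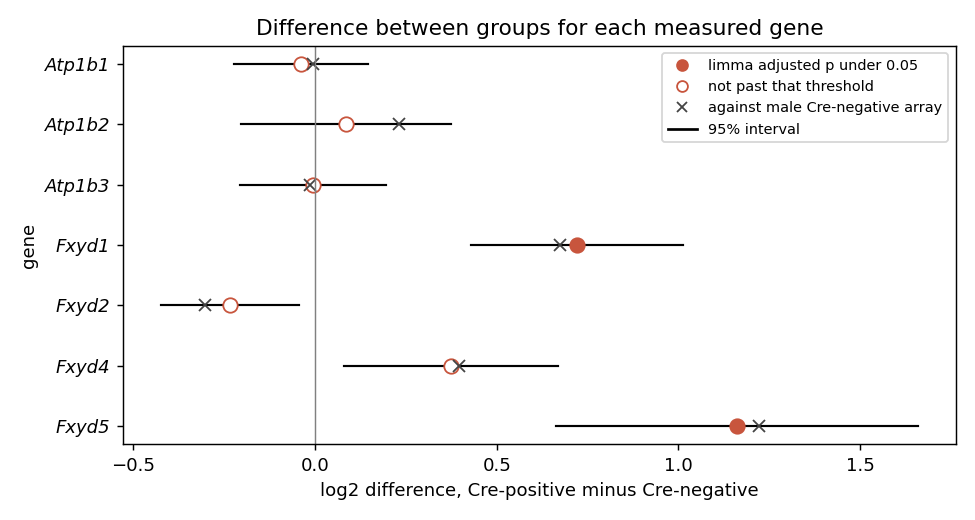
Log2 difference, Cre-positive minus Cre-negative, for each measured gene (circles, filled where limma adjusted p was under 0.05) with its 95% interval (lines) and the difference against the male Cre-negative array alone (crosses). Fxyd1 at 0.72 and Fxyd5 at 1.16 are filled, the intervals of Fxyd2 and Fxyd4 lie to either side of 0 and those of the 3 beta subunits include it.

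Fxyd2 encodes the gamma subunit, the most abundant FXYD protein of kidney tubules, in which a dominant mutation causes loss of magnesium in urine. Its values (probe set 17516784) were 10.48, 10.42 and 10.55 in Cre-negative and 10.25, 10.29 and 10.21 in Cre-positive arrays. All Cre-positive arrays were lower, with a gap of 0.13 between the groups. The difference was -0.23 ± 0.08 (95% interval -0.42 to -0.045), with limma adjusted p = 0.0806. It was -0.11 after a second quantile normalization (limma adjusted p = 0.437) and -0.29 after median centring (limma adjusted p = 0.0487), so size and call both moved with the scaling.

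Fxyd4 encodes CHIF, the corticosteroid-induced FXYD protein of the collecting duct, a segment outside the Six2 lineage. It read 8.68, 8.91 and 8.76 in Cre-negative and 9.37, 9.18 and 8.93 in Cre-positive arrays (probe set 17470095). The groups were apart by only 0.02, between Cre-negative replicate 2 and Cre-positive replicate 3. The difference was 0.38 ± 0.13 (95% interval 0.08 to 0.67, limma adjusted p = 0.0741). Without Cre-positive replicate 3 it was 0.49 ± 0.11 and passed (limma adjusted p = 0.0221), and with array weights it was 0.40 and passed (limma adjusted p = 0.0360). In 14 of 17 alternative settings it did not pass. Among these were median centring (0.32, limma adjusted p = 0.139) and leaving out Cre-positive replicate 1 (0.27, limma adjusted p = 0.174).

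Markers of other cells moved in the same arrays, and their part in the differences of the FXYD genes was not tested. The marker counts below are of called genes, where 10.7% of all genes were called higher and 11.1% lower. Beside Fxyd5 and Fxyd1, 6 of 7 macrophage and myeloid markers rose and 0 fell, among them Cd68 (2.13 ± 0.21) and Itgam (2.40 ± 0.23). Their mean level was 6.97 to 7.09 in Cre-negative arrays and 8.39, 8.86 and 9.34 in Cre-positive replicates 1, 2 and 3. The array with the least of both FXYD transcripts within the Cre-positive group was thus also the one with the least myeloid signal. Of 7 fibroblast markers 4 rose and 0 fell, with means of 8.78 to 8.84 against 9.07, 9.69 and 10.13. Pdgfra was higher by 0.55 ± 0.13 (limma adjusted p = 0.0192) and Pdgfrb stood at 0.45 ± 0.27 without passing. Of 6 vascular smooth muscle markers 3 rose and 0 fell, with means of 8.52 to 8.65 against 8.84, 9.30 and 9.42, and Myh11 (0.54 ± 0.10) was called while Cnn1 (0.43 ± 0.20) was not.

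Transcripts of skeletal muscle, a tissue rich in phospholemman, stood out in 1 array. The mean of 7 muscle markers was 6.98 in Cre-positive replicate 2 and 4.76 to 5.05 in the other 5 arrays, with Myh4 at 7.72 against 3.93 to 4.86, while Myh1 stood at 3.83 there and at 2.89 to 4.09 elsewhere. 0 of the 7 markers passed limma's test, as at an unadjusted p under 0.05. Without that array the Fxyd1 difference was 0.72 ± 0.15 (limma adjusted p = 0.0228).

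Beside Fxyd2, most of the called markers of proximal tubule and thick ascending limb were lower. Of 10 proximal tubule markers 8 fell and 0 rose, with a median of -1.145 and list means of 12.07 to 12.16 against 10.78 to 10.92. Lrp2 (-1.11 ± 0.10) and Cubn (-1.14 ± 0.12), the endocytic receptors megalin and cubilin, were among them. In the thick ascending limb list 4 of 7 fell and 1 rose, with means of 10.65 to 10.86 against 9.65 to 9.95. Its defining markers Umod (-0.28 ± 0.09) and Slc12a1 (-0.41 ± 0.13) did not pass, at limma adjusted p = 0.0559 and 0.0641.

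Beside Fxyd4, 3 of 7 principal cell markers rose and 0 fell. The called genes were Aqp2, Scnn1b and Scnn1g, and both Scnn1 genes are counted again in the sodium entry list below. Aqp2, the vasopressin-regulated water channel, was at 9.50, 9.68 and 9.50 in Cre-negative and at 10.99, 10.43 and 9.99 in Cre-positive arrays. Its order over the Cre-positive arrays was that of Fxyd4, highest in replicate 1 and lowest in replicate 3. Aqp3, Scnn1b and Scnn1g had this order too, while Aqp4, Avpr2 and Hsd11b2 were lowest in replicate 1. Aqp3 stood at 0.45 ± 0.23 (limma adjusted p = 0.225). Other members pointed the opposite way without passing, Aqp4 at -0.50 ± 0.18 (limma adjusted p = 0.0828) and Avpr2 at -0.25 ± 0.12 (limma adjusted p = 0.188). The list's mean was 9.29 to 9.56 against 9.46 to 9.81, so the groups overlapped. All 5 urothelial markers measured also rose, with means of 6.69 to 6.82 against 7.45 to 7.80, among them Upk1a (1.08 ± 0.13) and Upk1b (1.36 ± 0.12).

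With sex as a second factor the calls that held were 5 of 6 in the myeloid list, 1 of 4 in the fibroblast list, 0 of 3 in the smooth muscle list and 8 of 8 in the proximal tubule list. They were 3 of 5 for the thick ascending limb, 2 of 3 for principal cells and 4 of 5 for urothelium. With male arrays alone, calls held for 4 myeloid, 0 fibroblast, 0 smooth muscle, 7 proximal tubule, 3 thick ascending limb, 0 principal cell and 2 urothelial markers. Without both arrays with other tissues they held for 5, 1, 0, 7, 3, 0 and 4 in the same order.

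**Figure D3:**
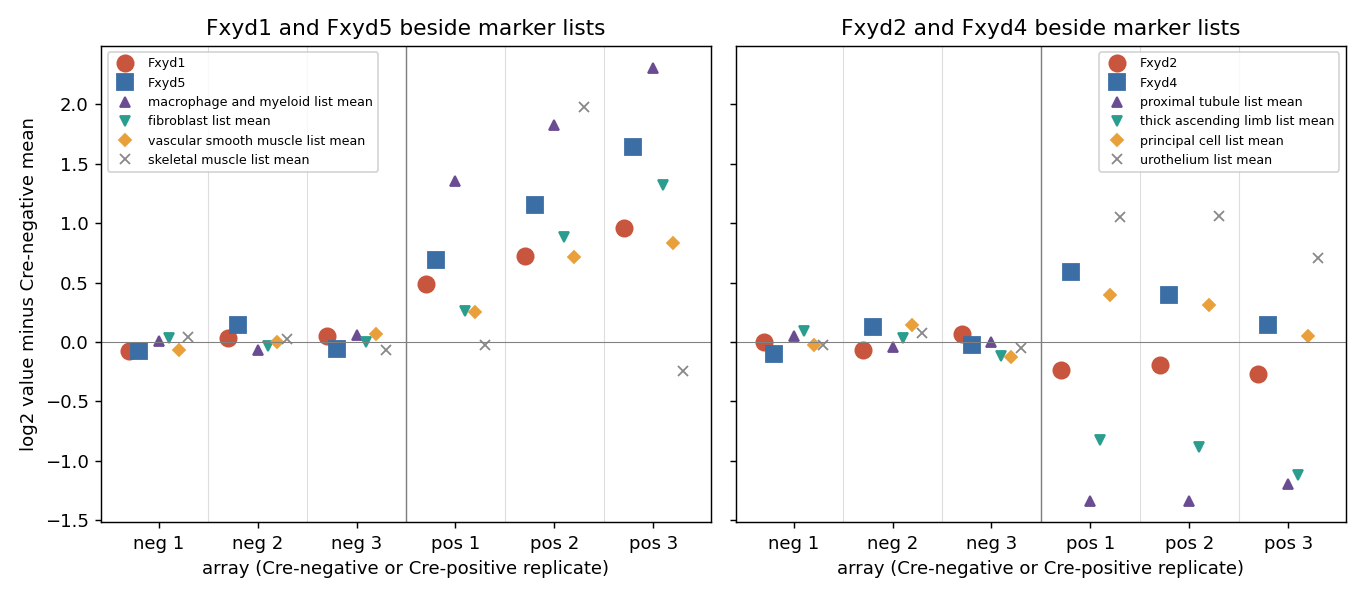
Log2 value of each array minus the Cre-negative mean, for Fxyd1 and Fxyd5 (left) and Fxyd2 and Fxyd4 (right), beside the mean of the marker lists named in the legends. In the left panel both genes and the myeloid, fibroblast and smooth muscle means are lowest in Cre-positive replicate 1 and highest in replicate 3 among the Cre-positive arrays, while skeletal muscle stands out in replicate 2 alone. In the right panel Fxyd4 lies beside the principal cell mean and Fxyd2 nearer to 0 than the means of the tubule lists.

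The gene with the smallest p in each family was set against all other genes by Pearson's r over the 6 arrays, as a description of likeness without a test. For Fxyd1 the 5 most similar of 17424 named genes were Ms4a6b (r = 0.9981), Tgfb1 (r = 0.9981), Dusp7 (r = 0.9979), Ccl17 (r = 0.9979) and Rab31 (r = 0.9977). Of these, Ms4a6b (1.59 ± 0.25), Tgfb1 (1.14 ± 0.15), Ccl17 (1.91 ± 0.29) and Rab31 (1.30 ± 0.21) were called higher, and Dusp7 (0.15 ± 0.08) was not. With 2 groups that stand apart, 613 genes reached an r above 0.95 with Fxyd1. For Atp1b2, whose groups overlap, 28 genes did, led by Zfpm2 (r = 0.9931), Cibar1 (r = 0.9912), Il10rb (r = 0.9889), Mob1a (r = 0.9872) and Ccdc134 (r = 0.9871), none of which was called.

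The other pump genes with probe sets of their own gave 1 call in 7, against 21.8% of all genes. Atp4a, the catalytic subunit of the gastric H,K-ATPase, which also occurs in collecting duct, was at 9.11, 8.94 and 8.70 in Cre-negative and at 8.12, 7.85 and 7.67 in Cre-positive arrays. All Cre-positive values were lower, and the fall was -1.04 ± 0.15 (limma adjusted p = 0.00216). Its beta subunit gene Atp4b (-0.32 ± 0.14) and the colonic H,K-ATPase gene Atp12a (0.29 ± 0.16) did not pass. Neither did Fxyd6 (0.36 ± 0.21), the neighbour of Fxyd2 on chromosome 9, Fxyd7 (0.11 ± 0.11), Atp1a4 (0.29 ± 0.15) and Atp1b4 (0.01 ± 0.11). The Atp4a call held with sex as a second factor and not with male arrays alone. Fxyd6 read 9.26 in Cre-positive replicate 3 and 8.24 to 8.57 in the other arrays.

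Among 20 measured genes that bind, anchor or regulate the pump, 5 were higher and 3 lower, with a median of 0.05. The share called was 40.0%, against 21.8% of all genes. Nkain1, which encodes a protein that interacts with beta subunits, rose by 1.015 ± 0.11, from 7.69 to 7.83 in Cre-negative to 8.61 to 8.97 in Cre-positive arrays. Sik1, a salt-inducible kinase, rose as well (0.74 ± 0.11). Add3, which encodes gamma-adducin of the membrane skeleton (-0.90 ± 0.12), and Ank2, which encodes an ankyrin (-0.73 ± 0.10), fell. With sex as a second factor 5 of the 8 calls held, and 1 with male arrays alone.

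Of 16 genes for sodium entry and cotransport, whose transport the pump's gradient drives, 10 fell and 3 rose, with a median of -0.69. The share called was 81.2%, against 21.8% of all genes. Slc34a1, Slc5a2, Slc12a1, Slc12a3, Scnn1b and Scnn1g are also in the marker lists, so these lists overlap. The phosphate transporters Slc34a3 (-3.48 ± 0.15) and Slc34a1 (-0.77 ± 0.09), the glucose transporter Slc5a2 (-2.49 ± 0.15) and the lactate transporter Slc5a12 (-0.79 ± 0.11), all of the proximal tubule, had the smallest p. The 3 genes that rose were the sulfate transporter Slc13a1 (0.36 ± 0.11) and, from the epithelial sodium channel of the collecting duct, Scnn1b (0.54 ± 0.12) and Scnn1g (0.555 ± 0.12). Scnn1a, of the same channel, had overlapping groups and did not pass (0.15 ± 0.14, limma adjusted p = 0.512). With sex as a second factor 6 of the 13 calls held, and 2 with male arrays alone.

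Over 17 alternative settings, the calls of Fxyd1 and Fxyd5 were each lost in 3, which were sex as a second factor, male arrays alone and leaving out both arrays with other tissues. With male arrays alone Fxyd1 was at 0.675 ± 0.21 (limma adjusted p = 0.139) and Fxyd5 at 1.22 ± 0.34 (limma adjusted p = 0.110). The 3 beta subunit genes did not pass in any of the 17, with adjusted p from 0.453 up.

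**Figure D4:**
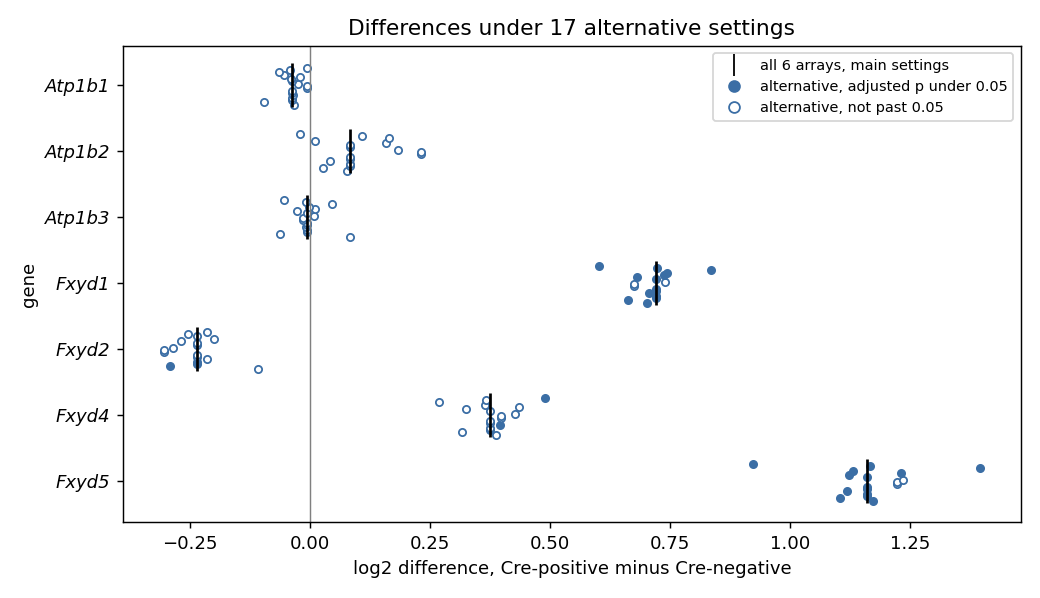
Log2 difference, Cre-positive minus Cre-negative, of each measured gene with all 6 arrays and the main settings (black bars) and under 17 alternatives (circles, filled where limma adjusted p was under 0.05). Fxyd1 stays between 0.60 and 0.84 and Fxyd5 between 0.92 and 1.40, with 3 open circles each, while Atp1b2 and Atp1b3 lie on both sides of 0.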

How the data were processed

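Total RNA of 6 kidney samples was labelled with biotin by the Affymetrix WT Plus protocol, per the labels' protocols. The authors deposited log2 values per probe set. RMA, which corrects background, quantile-normalizes and summarises probes, and Partek are named without versions in the submitters' processing notes. The genome build behind the probe sets is not given in the sources used here. RMA compresses differences of dim probe sets.

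Of 41345 probe sets, 23521 had exactly 1 gene symbol in GEO's platform annotation, 1814 had several and 16010 none. The probe set with the highest mean stood for each of 22180 genes, with no filter on low values. The comparison of the groups used lmFit and eBayes of limma 3.58.1 (R 4.3.3), two-sided and without covariates, with Benjamini-Hochberg adjustment. On simulated data for these groups with 22180 genes, the fit recovered 22% of 100 true log2 changes of 0.5. It recovered 64% of 50 changes of size 1 and 98% of 50 of size 2, with 2 false calls. Only these genes were changed there, with noise drawn independently, whereas 21.8% of all genes passed in the real data. The adjustment was therefore stricter in the simulation, and its shares do not carry over to the real comparison.

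All members were named, with every gene of the other pump list, the 4 of smallest p in the other pathway lists and the first 2 of each marker list that is described. Aqp4, Avpr2, Hsd11b2, Slc13a1, Scnn1a, Scnn1b and Scnn1g were named after their values were seen. Members and lists were chosen with earlier results of these data known. List genes without a probe set of their own were not analysed here. Promoter sequences are RefSeq's (GRCm38.p6). Alternatives were other scalings, filters, variance models, array weights, probe set rules, thresholds, the replicate number or sex as a factor, and fewer arrays. Deviations from the group means gave r = -0.04 to 0.03 for same-numbered samples of the groups and -0.04 to 0.05 for differently numbered ones. Figures were drawn with Python 3.11.15 and matplotlib 3.10.9.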

Additional observations from a re-analysis of the deposited data

Results flagged for a closer look

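The probe set annotated to both Fxyd3 and Lgi4 lies outside the comparison, since its signal cannot be assigned to either gene, and it was higher in Cre-positive arrays. It read 5.78, 5.90 and 5.67 in Cre-negative and 6.85, 6.65 and 6.42 in Cre-positive arrays, a difference of 0.855 ± 0.13 (limma adjusted p = 0.00895 over all 41345 probe sets). Its Cre-negative values lay near the array medians of 5.55 to 5.64. This probe set was not fitted with sex as a second factor, with male arrays alone or without both arrays with other tissues. Groups of 3 arrays are too small for a check of single outlying samples.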

How the results depend on the processing

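The count of 2 called members was 2 to 3 when each array was left out in turn, 4 when genes below the median level were left out, 4 at a threshold of 0.10 and 1 with a minimum of 2-fold. It was 0 in limma with sex as a second factor (3 at an unadjusted p under 0.05), 0 with male arrays alone (2 unadjusted) and 0 without both arrays with transcripts of other tissues (2 unadjusted). The 4844 genes called over the whole table became 2030, 1101 and 1853 under these 3 settings, 2516 at a threshold of 0.01, 942 with a minimum of 2-fold and 3141 to 4885 when each array was left out, with the lowest count without Cre-negative replicate 1. The SE was wider in the first 3 settings. With sex as a factor or male arrays alone the difference rests on 1 Cre-negative array. Without both arrays with other tissues there were fewer arrays. A lost call in these settings does not show a smaller difference. Male arrays alone leave 1 Cre-negative array, taken to be as variable as the rest. With the replicate number as a block 2 members and 3977 genes were called, and no member's call changed. The replicate numbers gave no sign of paired samples, though 3 arrays per group cannot exclude pairing.

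Fxyd1, Fxyd5, Fxyd4, Fxyd2 and Atp1b1 kept their direction under all 17 alternatives, which for the first 4 partly follows from groups that do not overlap. Atp1b3 changed sign under a second quantile normalization (0.084), without both arrays with other tissues (0.008) and in part of the fits without 1 array (-0.054 to 0.045), and Atp1b2 in 1 of those (-0.020 to 0.164). Fxyd2 also passed without genes below the median level (limma adjusted p = 0.0339) and with trend and robust settings (0.0400), and Fxyd4 without genes below the median level (0.0452). Both missed the threshold in 14 of the 17 alternatives.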

Other observations

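Marker lists of the remaining cell types moved as follows, as counts of called genes against 21.8% of all genes. Of 7 distal convoluted and connecting tubule markers 4 fell, among them Slc12a3 (-0.78 ± 0.12) and Trpm6 (-0.63 ± 0.10), and 1 rose. Of 6 intercalated cell markers, which belong to the cells where Atp4a is known to occur in the kidney, 3 fell and 0 rose, among them Slc4a1 (-1.02 ± 0.15) and Slc26a4 (-1.36 ± 0.21). Their mean was 9.38 to 9.71 in Cre-negative and 8.92 to 9.15 in Cre-positive arrays. Of 5 podocyte markers 4 fell and 0 rose, with Nphs1 at -1.41 ± 0.14 and Podxl at -1.27 ± 0.15. Of 6 endothelial markers 4 fell and 0 rose, with Kdr at -1.18 ± 0.13, while Pecam1 (-0.09 ± 0.10) did not pass. Of 4 markers of Schwann cells and nerve 1 rose and 0 fell, and their mean was 4.76 to 5.14 against 4.96 to 5.11. S100b (-0.11 ± 0.14) and Sox10 (0.27 ± 0.11) did not pass. The adrenal markers stood at a mean of 8.99 in Cre-negative replicate 2 and at 4.29 to 4.36 in the other arrays, and Cyp11b1 and Cyp11b2 read 11.10 and 5.28 there. None of the 6 adrenal and 4 sex-linked genes passed limma's test, with 0 and 4 at an unadjusted p under 0.05. Xist read 10.76, 10.70 and 4.16 in Cre-negative arrays and 4.00 to 4.29 in Cre-positive ones, and Uty 4.54, 4.10 and 9.14 against 8.98 to 9.17.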
